A study of Arabidopsis thaliana with 2 samples.

Results

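The Aux/IAA repressors and the TIR1/AFB auxin receptors were described in seedlings of wild-type Arabidopsis (Columbia, Col) and of an ARF18 overexpression line, labelled 35S-ARF18-OE-2 and called the ARF18 line here, in the same ecotype. The members were defined by locus, in a list made with earlier results of these data known. They are 29 Aux/IAA genes and the receptor genes TIR1, AFB1, AFB2, AFB3 and AFB5. The list holds 34 loci, beside 21825 loci with a row in the deposited table. Of the 34, 31 had a row (26 Aux/IAA genes and all 5 receptors), and IAA15, IAA32 and IAA34 had none and were not analysed here. RNA came from whole seedlings, 1 library per genotype. The labels call the plants 7 days old in 1 place and in another describe 4 days of darkness followed by 7 days of white light. Both genotypes share that growth regime, and no treatment with auxin is named. The line is named for the 35S promoter, which is active in most tissues, and the number of independent transformants behind the library is not stated.

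Auxin acts by destroying repressors. An Aux/IAA protein sits on an auxin response factor (ARF) and, with TOPLESS co-repressors, keeps the target gene silent. When auxin enters the pocket of a TIR1/AFB F-box protein, the receptor captures the Aux/IAA through a short degron, and the SCF ubiquitin ligase marks the repressor for the proteasome. Many Aux/IAA genes are themselves switched on by auxin through activator ARFs, which closes a negative feedback loop. ARF18 belongs to the ARFs classed as repressors, which are thought to bind the same kind of promoter element. The microRNA miR393 directs cleavage of transcripts for several of the receptors.

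The degron shows which repressors the receptors can capture, so its coding sequence is shown first. Its core is glycine-tryptophan-proline-proline followed by valine, isoleucine or leucine. Among the 29 Aux/IAA genes, 17 coded for the core with valine, 5 with isoleucine and 1, IAA10, with leucine. The other 6, IAA20, IAA30, IAA31, IAA32, IAA33 and IAA34, had no such core in the coding sequence searched. The stretches below are read from the RefSeq TAIR10.1 genome, 5′ to 3′ on the coding strand, and the capitals mark the 15 bases that code for the core. The first 4 are the repressors with the highest levels here and IAA3 is the tandem neighbour of IAA17.
IAA16 (chr3:1289724-1289762, minus strand): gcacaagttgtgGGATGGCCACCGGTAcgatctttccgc
IAA17 (chr1:1136935-1136973, plus strand): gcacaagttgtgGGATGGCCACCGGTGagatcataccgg
IAA27 (chr4:14324648-14324686, minus strand): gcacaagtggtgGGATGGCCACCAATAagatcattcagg
IAA7 (chr3:8195565-8195603, plus strand): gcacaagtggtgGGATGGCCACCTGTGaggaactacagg
IAA3 (chr1:1129013-1129051, minus strand): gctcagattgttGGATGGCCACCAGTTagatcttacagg
IAA10 (chr1:1060325-1060363, plus strand): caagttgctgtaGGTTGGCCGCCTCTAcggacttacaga

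On the receptor side, the miR393 site separates TIR1, AFB1, AFB2 and AFB3 from AFB5. The mature miR393a-5p and miR393b-5p sequences are identical, and the capitals in them mark the seed, bases 2 to 8. In each receptor the window of 22 bases with the most Watson-Crick pairs to miR393 is shown, with paired bases in capitals. All 5 windows lie in the coding sequence and within 1 exon.
miR393a-5p (chr2:16652111-16652132, plus strand): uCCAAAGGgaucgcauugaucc
TIR1 (chr3:23273727-23273748, minus strand): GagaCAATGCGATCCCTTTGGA
AFB1 (chr4:1405341-1405362, minus strand): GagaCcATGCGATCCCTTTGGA
AFB2 (chr3:9870237-9870258, plus strand): GaAaCAATGCGATCCCTTTGGA
AFB3 (chr1:4369085-4369106, minus strand): GaAaCAATGCGATCCCTTTGGA
AFB5 (chr5:20335762-20335783, minus strand): GGATCtcTtgttTCCCTgaGGA
AFB2 and AFB3 had 2 bases without a Watson-Crick pair, TIR1 3 and AFB1 4, and all 4 genes paired over the whole seed. In TIR1 and in AFB1, 1 of these bases could form a G:U wobble pair. AFB5 had 8 bases without a Watson-Crick pair, as many as the best windows of IAA9, IAA11, IAA14, IAA16 and IAA19. MIR393B had 0 counts in Col and 1 in the ARF18 line, and MIR393A had no row, so the precursors could not be compared.

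The values came from 7059226 counted reads for wild type and 6824188 for the ARF18 line. Levels are given as RPKM, the authors' read count scaled to transcript length and library total, summed over the transcript models of a locus, so that they can be set side by side between genes. Intervals are 95% exact intervals and cover counting error only, and reads made by PCR are not independent molecules. With 1 library per genotype there is no spread between replicates and no test, so every value describes these libraries. ARF18 itself stood at 5.85 RPKM in wild type and 29.5 in the ARF18 line. Leaf markers were high in both libraries (RBCS1A, LHCB1.1 and PSAD1 together 1866 RPKM in wild type and 1794 in the ARF18 line, with count ratios of 1.20 for RBCS1A, 0.821 for LHCB1.1 and 0.878 for PSAD1, each beyond counting error), and the seed storage markers CRA1 and 2S1 had no row. Of the 4 root markers, TIP2;3, WER and PRX64 had a count ratio above 1 beyond counting error and COBL9 one below 1. The ratios were 2.74 (1.96 to 3.89) for TIP2;3, 1.37 (1.18 to 1.60) for PRX64 and 0.780 (0.628 to 0.966) for COBL9. WER rested on 5 counts in wild type and 15 in the ARF18 line, with a ratio interval from 1.07 to 10.9. Together the 4 root markers stood at 54.9 RPKM in wild type and 78.0 in the ARF18 line. Their part in the results below was not tested. In whole seedlings a smaller part of the plant and less RNA per cell cannot be told apart.

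Most of the Aux/IAA message in these seedlings came from 4 genes. IAA16, IAA17, IAA27 and IAA7 together made up 76.2% of the summed Aux/IAA RPKM in wild type and 76.5% in the ARF18 line. IAA16 (AT3G04730, chr3:1288155-1290891, minus strand, 5 exons), for which dominant mutations give dwarf auxin-resistant plants, was highest, at 179 RPKM (171 to 188) in wild type and 184 (175 to 193) in the ARF18 line. IAA17 (AT1G04250, chr1:1136078-1138663, plus strand, 5 exons), known as AXR3 and for its role in root gravitropism and root hairs, was next at 111 (103 to 118) and 148 (139 to 157). IAA27 (AT4G29080, chr4:14323296-14325361, minus strand), also named PAP2, stood at 104 (97.1 to 110) and 101 (94.4 to 108). IAA7 (AT3G23050, chr3:8194606-8197161, plus strand), known as AXR2, stood at 81.8 (75.9 to 87.9) and 100.2 (93.5 to 107). In wild type IAA17 and IAA27 did not differ beyond counting error, and in the ARF18 line IAA27 and IAA7 did not.

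**Figure D1:**
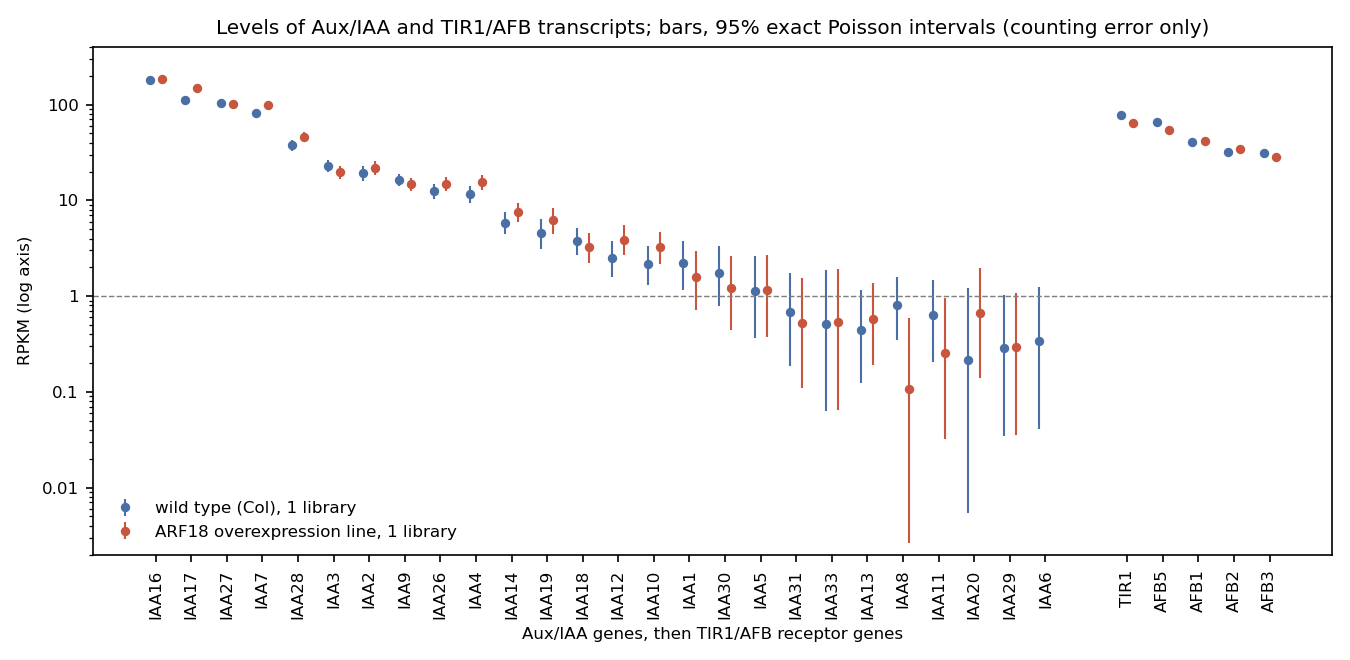
RPKM on a log axis for the 26 Aux/IAA genes with a row, ordered by mean level, and then the 5 receptors; points are the single library of each genotype and bars are 95% exact Poisson intervals. The dashed line marks 1 RPKM, and IAA6, with 0 counts in the ARF18 line, has no point there. Levels run from 184 RPKM for IAA16 in the ARF18 line to below 1 RPKM for 8 genes, and no expressed member is 2-fold apart between genotypes.

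A middle group ran from IAA28 to IAA5. IAA28, a repressor of lateral root formation, stood at 37.6 RPKM in wild type and 45.8 in the ARF18 line. IAA3, known as SHY2 and for its role in root meristem size, stood at 23.0 and 19.8, and its close relative IAA4 at 11.6 and 15.4. IAA2 stood at 19.3 and 21.8, IAA9 at 16.4 and 14.8, and IAA26, also named PAP1, at 12.4 and 14.96. IAA14, the SOLITARY ROOT gene of lateral root initiation, stood at 5.83 and 7.51, and IAA19, the MASSUGU2 gene of hypocotyl bending, at 4.53 and 6.19. Below these were IAA18, IAA12 (the BODENLOS partner of ARF5 in the embryo), IAA10, IAA1, IAA30 and IAA5, between 1.13 and 3.89 RPKM in both libraries. Of the 25 neighbouring pairs in the order of Aux/IAA levels, 19 did not differ beyond counting error in each library, and all 6 that did in wild type lay between IAA16 and IAA14.

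The repressors without the degron core were scarce. IAA30 was the only one of them to reach a mean of 1 RPKM, the minimum used here to call a gene expressed, at 9 and 6 counts in wild type and the overexpression library. IAA20 had 1 and 3 counts, IAA31 had 4 and 3, and IAA33 had 2 and 2. Together the 4 with a row summed to 3.16 RPKM in wild type and 2.94 in the ARF18 line, against 620 and 693 RPKM for the 22 with the core. Of those with the core, 17 were expressed, and IAA6, IAA8, IAA11, IAA13 and IAA29, the last an auxin-induced gene of shade responses, were below the minimum. All 8 members below the minimum had at most 8 counts in a library. Among them the scaled count ratio was 0.129 (0.0029 to 0.964) for IAA8, with 8 counts in Col and 1 in the ARF18 line, and 0.414 (0.0394 to 2.53) for IAA11, with 5 and 2.

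Members that the table splits into 2 rows had lower median counts, but not all of them were low. IAA7, IAA8, IAA9, IAA11, IAA12 and IAA13 each had 2 rows, 1 per transcript model, and these 6 had a median of 32 counts over both libraries, against 219 for the 25 members with 1 row. Over all nuclear loci the medians were 23 and 101 counts. With 2 rows, IAA7 still had 726 and 859 counts in wild type and the ARF18 line, and IAA9 had 188 and 164. With 1 row each, IAA6, IAA20, IAA29, IAA31 and IAA33 were below the minimum. IAA8 had 8 counts from Col, all in 1 model, and 1 count from the ARF18 line, in another model, while the RefSeq annotation lists 5 transcripts for it. How reads shared between models were assigned is not given in the sources used here, so the levels of these genes may be too low.

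TIR1 was the most abundant receptor and AFB3 the least, and all 5 were expressed in both libraries. TIR1 (AT3G62980, chr3:23273065-23276630, minus strand, 3 exons), the founding auxin receptor, stood at 77.5 RPKM (73.4 to 81.9) in wild type and 64.4 (60.6 to 68.5) in the ARF18 line. AFB5 (AT5G49980, chr5:20333897-20336671, minus strand, 3 exons), known for its preference for picolinate auxins, stood at 65.6 (61.8 to 69.5) and 54.5 (51.1 to 58.2). AFB1 (AT4G03190), tied to the fastest auxin responses of the root, stood at 40.5 (37.3 to 43.9) and 41.7 (38.4 to 45.2). AFB2 (AT3G26810) stood at 32.2 (29.6 to 35.0) and 34.4 (31.6 to 37.4), and AFB3 (AT1G12820) at 31.0 (28.3 to 33.8) and 28.3 (25.7 to 31.1). Every step of this order held beyond counting error in both libraries except AFB2 and AFB3, which did not differ in wild type. The related receptor AFB4, which is not among the members, had 7 and 5 counts, or 0.423 and 0.313 RPKM.

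No expressed member was 2-fold apart between the libraries. The difference is given as the log2 ratio of (RPKM + 1), overexpression over wild type, which understates differences of low genes, and as the count ratio scaled to the library totals. Among the 23 expressed members, 0 were 2-fold apart, where 1.91% of all 15083 expressed nuclear genes were, 1.25% higher and 0.663% lower in the ARF18 line (the 2-fold threshold corresponds to a log2 ratio of 1 or -1). At 1.5-fold, which 11% of expressed genes reached, 6.24% higher and 4.71% lower, the count was also 0. The log2 ratios of expressed members ran from -0.32 for IAA30 to 0.48 for IAA12. Of the 23, 14 were positive, and over all expressed nuclear genes 53.8% were.

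Counting intervals excluded 1 for 6 expressed members, or 26.1%, where 34.3% of expressed nuclear genes had such an interval. They lay above 1 for IAA17, IAA7, IAA28 and IAA4, 4 of 18 expressed Aux/IAA genes, or 22.2%. Of all expressed genes 18.7% had an interval above 1. Within the Aux/IAA range of transcript length 2189 of 8051 expressed nuclear genes did, a larger share than that of the Aux/IAA genes. Intervals lay below 1 for TIR1 and AFB5, 2 of 5 receptors, beside 15.6% of all expressed genes. Within the receptors' range of length 393 of 1298 did, a smaller share than that of the 5 receptors. This rule favours genes with many reads: of the 8 members with 1000 counts or more over both libraries 4 had such an interval, or 50%, against 73.0% of all expressed genes of that depth. In the authors' deposited table, which tests the reads of these libraries and not the genotypes, 5 of 37 member rows had an FDR of 0.05 or less, or 13.5%, against 15.3% of all rows. These were IAA17, 1 model each of IAA7 and IAA8, TIR1 and AFB5. Only the IAA8 model was also 2-fold apart there, a call that 1.51% of all rows had.

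Of the expressed repressors, IAA17 had the interval farthest above 1. Wild type gave 848 counts and the ARF18 line 1098, a count ratio of 1.34 (1.22 to 1.47) and a log2 ratio of 0.42. Its share of all Aux/IAA reads was 15.9% (14.9 to 16.9) in wild type and 19.2% (18.2 to 20.2) in the ARF18 line, so these intervals did not overlap. IAA7 had 726 and 859 counts, a ratio of 1.22 (1.11 to 1.35). IAA28 had 232 and 273, a ratio of 1.22 (1.02 to 1.46), and IAA4 had 96 and 123, a ratio of 1.32 (1.01 to 1.75). For IAA28 and IAA4 the lower bounds were close to 1. The gene with the most reads, IAA16, had 1620 and 1604 counts, a ratio of 1.02 (0.955 to 1.098), and IAA27 had 977 and 920, a ratio of 0.974 (0.889 to 1.07).

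Ratios are set side by side by clade here, and differences between relatives were not tested. The clade of IAA7, IAA14, IAA16 and IAA17 had log2 ratios above 0 in all 4 genes, at a median of 0.30. Of 8051 expressed nuclear genes within the Aux/IAA range of transcript length, 5525 had a log2 ratio above 0, and the median of all 8051 was 0.16. The count ratio intervals of IAA14 and IAA16 included 1. Adjusted for length the median of the clade was 0.20, and 3 of its 4 genes were above 0. In the clade of IAA8, IAA9 and IAA27 the 2 expressed genes, IAA9 and IAA27, had -0.14 and -0.04. IAA3 and IAA4, whose proteins were 78.0% identical, had count ratios of 0.861 (0.693 to 1.07) and 1.32 (1.01 to 1.75), with overlapping intervals. Of the expressed members, IAA10 and IAA12 had the highest ratios, 1.52 (0.822 to 2.89) and 1.55 (0.878 to 2.79), but from 19 and 28 and from 22 and 33 counts, so neither was separated from 1.

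In 3 places an Aux/IAA gene of the IAA7 clade lies next to one of the IAA1 to IAA4 clade in divergent orientation, with 1 annotated gene between them. IAA3 and IAA17 are 6388 bases apart on chromosome 1, IAA2 and IAA7 12510 bases apart on chromosome 3, and IAA1 and IAA14 10732 bases apart on chromosome 4. The count ratios were 0.861 and 1.34 for IAA3 and IAA17, 1.13 and 1.22 for IAA2 and IAA7, and 0.716 and 1.29 for IAA1 and IAA14. The intervals of IAA3 and IAA17 did not overlap, whereas those of the other pairs did, and IAA1 rested on 13 and 9 counts.

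Among the receptors, TIR1 and AFB5 were lower in the ARF18 line and AFB1, AFB2 and AFB3 were not separated from wild type. TIR1 had 1282 counts in Col and 1030 in the ARF18 line, a ratio of 0.831 (0.765 to 0.903). AFB5 had 1134 and 912, a ratio of 0.832 (0.762 to 0.909). AFB1 had 589 and 586, a ratio of 1.03 (0.916 to 1.16). AFB2 had 546 and 564, a ratio of 1.07 (0.948 to 1.20), and AFB3 had 487 and 431, a ratio of 0.915 (0.802 to 1.04). Adjusted for transcript length, as described below, the intervals of TIR1 and AFB5 included 1 and that of AFB2 lay above 1.

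**Figure D2:**
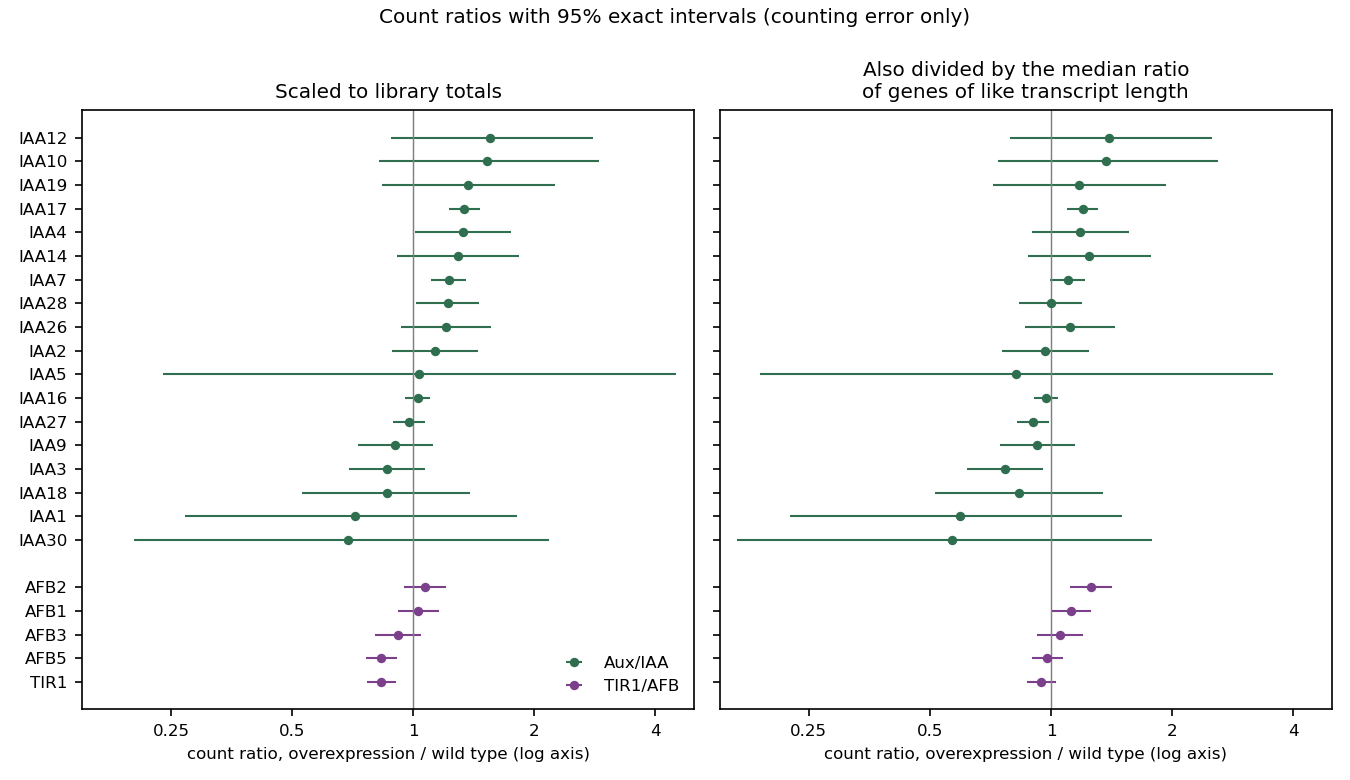
Count ratios of the 23 expressed members, overexpression over wild type, on a log axis with 95% exact intervals; the left panel is scaled to library totals and in the right panel each ratio is also divided by the median ratio of genes of like transcript length. On the left IAA17, IAA7, IAA28 and IAA4 lie above 1 and TIR1 and AFB5 below; on the right IAA17 and AFB2 lie above 1 and IAA3 and IAA27 below.

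Transcript length moved with these differences. Over all expressed nuclear genes the log2 ratio was lower for longer transcripts (Spearman's rho -0.52, across genes, which are not independent replicates). The receptors are long, from 2061 to 2450 bases, and expressed Aux/IAA genes run from 628 to 1624 bases. The median log2 ratio was 0.21 for the 18 expressed Aux/IAA genes and -0.12 for the 5 receptors, and 0.03 for all expressed nuclear genes. For all expressed nuclear genes within the same range of length it was 0.16 and -0.15. Summed over members with a row, Aux/IAA RPKM went from 623 to 696 and receptor RPKM from 247 to 223. The Aux/IAA sum was thus 2.53 times the receptor sum in wild type and 3.12 times in the ARF18 line. Over all expressed nuclear genes in the Aux/IAA range of length the sum went from 497212 to 556221 RPKM. In the receptors' range it went from 36908 to 32403. The part of transcript length in the shift between the 2 families was not tested.

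**Figure D3:**
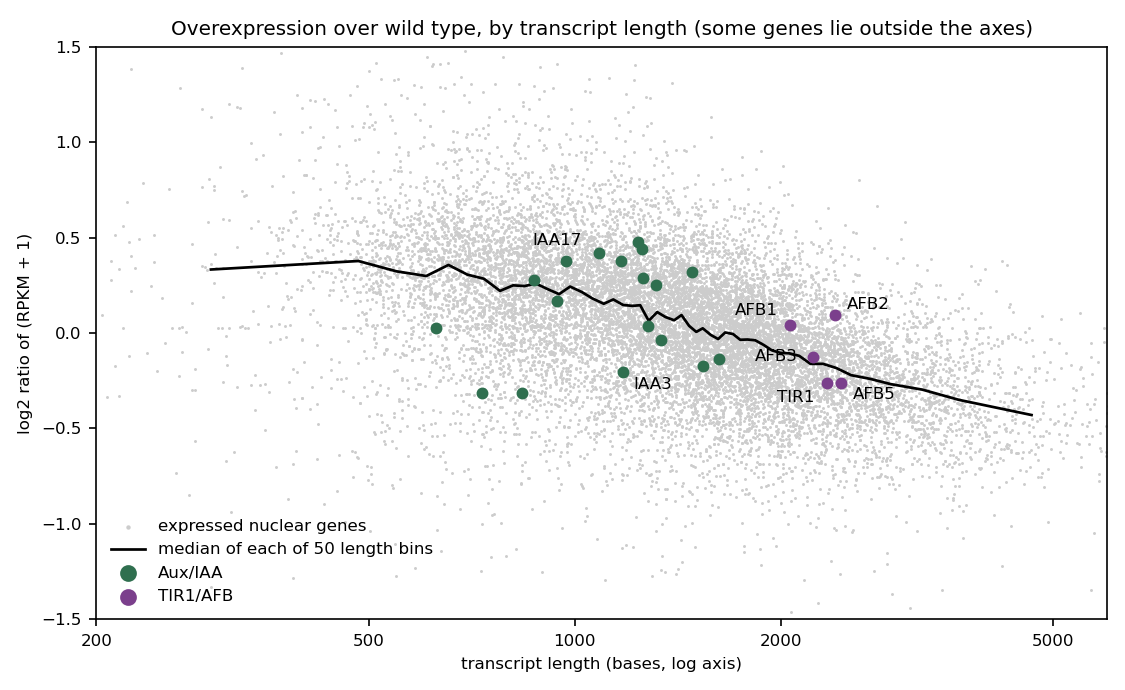
Log2 ratio of (RPKM + 1), overexpression over wild type, against transcript length in bases on a log axis; grey points are expressed nuclear genes, the line joins the medians of 50 bins of equal gene number, and coloured points are the expressed members. The line falls with length, with the receptors on its right side and the Aux/IAA genes on its left, and members scatter to both sides of it.

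When the median ratio of genes of like length was divided out, a step added after seeing the data, 4 expressed members had an interval that excluded 1, where 23.3% of expressed nuclear genes did. IAA17 stayed above 1 at 1.20 (1.09 to 1.31). AFB2 came to lie above 1 at 1.26 (1.12 to 1.42), and IAA3 and IAA27 came to lie below 1 at 0.768 (0.619 to 0.953) and 0.902 (0.824 to 0.988). IAA7, at 1.1 (0.995 to 1.22), IAA4, at 1.18 (0.898 to 1.56), and IAA28, at 0.998 (0.835 to 1.19), no longer excluded 1. TIR1 stood at 0.946 (0.870 to 1.03) and AFB5 at 0.980 (0.897 to 1.07), so neither was separated from genes of its length. The medians of the log2 ratios adjusted for length were -0.0061 for Aux/IAA genes and 0.039 for receptors.

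Shares of the reads of a family depend on all its members. AFB2, whose own count ratio of 1.07 included 1, took 13.5% (12.5 to 14.6) of receptor reads in wild type and 16.0% (14.8 to 17.3) in the ARF18 line, intervals that did not overlap. TIR1 took 31.7% (30.3 to 33.2) and 29.2% (27.7 to 30.8), AFB5 28.1% (26.7 to 29.5) and 25.9% (24.4 to 27.4), AFB1 14.6% (13.5 to 15.7) and 16.6% (15.4 to 17.9), and AFB3 12.1% (11.1 to 13.1) and 12.2% (11.2 to 13.4). Those intervals overlapped. Among the repressors IAA27 went from 18.3% (17.2 to 19.3) to 16.1% (15.1 to 17.1) of Aux/IAA reads, without overlap, and IAA16 from 30.3% (29.1 to 31.5) to 28.0% (26.9 to 29.2), with overlap.

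**Figure D4:**
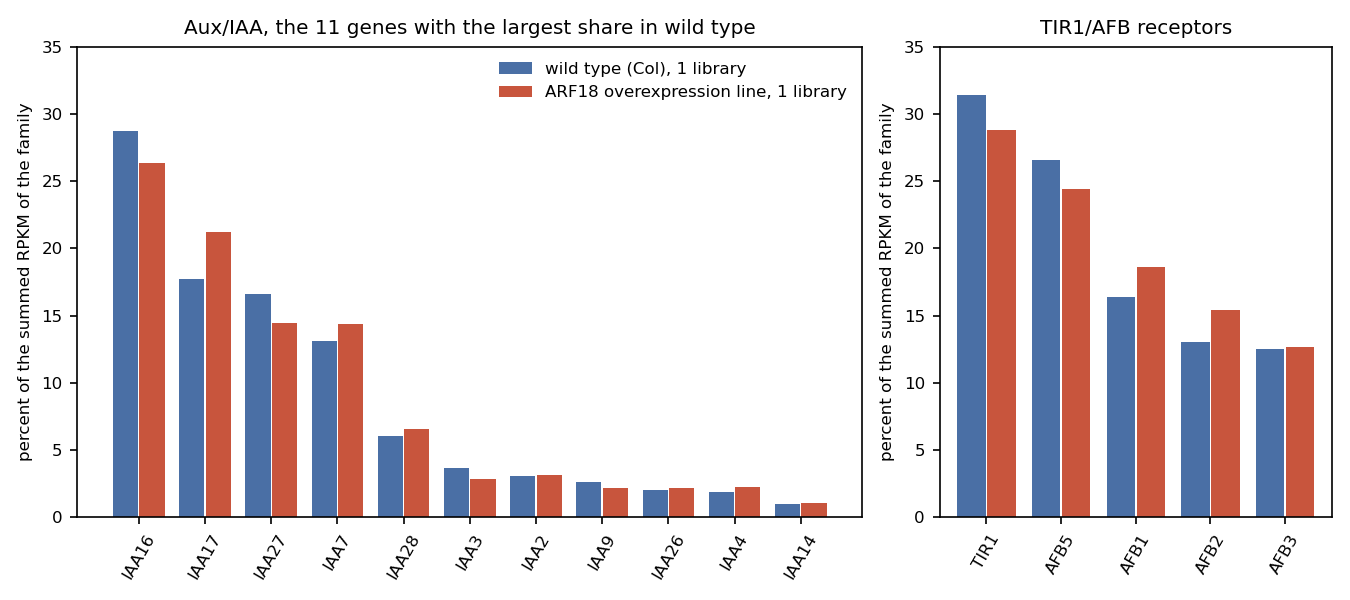
Percent of the summed RPKM of each family taken by single genes in the wild-type and the overexpression library, 1 library each and without error bars; the left panel holds the 11 Aux/IAA genes with the largest share in wild type, the right panel the 5 receptors. IAA17 takes 17.7% in wild type and 21.3% in the ARF18 line, and AFB2 13.1% and 15.4%.

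Auxin response elements, the sites that ARFs bind, were common before Aux/IAA genes. The motifs TGTCTC and TGTCGG were searched on both strands in the 250 bases before each annotated gene start of TAIR10.1, and no site can match both. TGTCTC was found before 9 of 29 Aux/IAA genes (31.0%) and TGTCGG before 6 (20.7%), where 10.9% and 4.16% of all 27443 protein-coding nuclear genes had them. Either motif was found before 13 Aux/IAA genes (44.8%), against 14.7% of all, and before 1 of 5 receptors, AFB5. IAA19 had the most TGTCTC matches, 3, and its window is shown with them in capitals.
IAA19 promoter (chr3:5263751-5264000, plus strand): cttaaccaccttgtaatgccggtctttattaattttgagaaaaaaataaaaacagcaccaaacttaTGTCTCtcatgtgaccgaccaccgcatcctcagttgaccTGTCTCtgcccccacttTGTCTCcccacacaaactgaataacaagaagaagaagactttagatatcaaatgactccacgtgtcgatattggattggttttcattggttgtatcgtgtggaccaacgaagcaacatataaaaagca
IAA19 had 31 and 41 counts in wild type and the ARF18 line, a ratio of 1.37 (0.837 to 2.26). The 7 expressed Aux/IAA genes with either motif had a median log2 ratio of 0.03. None had an interval that excluded 1, where 34.3% of all expressed genes did. Of these 7, IAA1, IAA5, IAA12, IAA19 and IAA30 had at most 41 counts in a library. The 11 expressed without a motif had a median of 0.28. They held all 4 with an interval above 1. Of all expressed genes 18.7% had one, and of 8051 within the Aux/IAA range of transcript length 2189 did. Adjusted for length the medians were -0.15 and 0.14. With a motif, the adjusted interval of IAA27 lay below 1. Without one, that of IAA17 lay above 1 and that of IAA3 below. This split was made after seeing the data, a match is not a bound site, and other windows or motif forms were not searched.

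On the log2 (RPKM + 1) scale, no expressed SCF, TOPLESS or activator ARF gene was 2-fold apart. In the list for the SCF ligase and its regulators, 8 of 9 genes had a row and 6 were expressed. Of these 6, 2 had an interval above 1, where 18.7% of all expressed genes did. They were the SKP1 homologue ASK1, at 489 RPKM in wild type and 583 in the ARF18 line, a ratio of 1.19 (1.14 to 1.25), and ASK2, with a ratio of 1.13 (1.02 to 1.25). Their log2 ratios of 0.25 and 0.17 were -0.0063 and -0.03 when adjusted for length. AXR1, which activates the cullin of the complex, had 35 and 23 counts, a ratio of 0.680 (0.383 to 1.18). Of the 5 TOPLESS co-repressor genes, 2 were expressed, and TPR2 had a ratio of 0.753 (0.678 to 0.835) with a transcript of 3812 bases. Its log2 ratio of -0.40 was -0.05 when adjusted for length. Of the 5 activator ARF genes 4 had a row and 2 were expressed, ARF5 at 0.899 (0.778 to 1.04) and ARF19 at 0.564 (0.365 to 0.859). The ARF19 transcript has 3896 bases, and its log2 ratio of -0.53 was -0.18 when adjusted for length. CUL1, CAND1, TPL, TPR1 and ARF6 were below the minimum with 2 rows each, 1 per transcript model. Their levels may be too low, which was not tested. The expressed TPR4 also had 2 rows, and TPR3 and ARF8 were below the minimum with 1 row. Intervals lay below 1 for CUL1, CAND1 and TPR1, at 5 counts or fewer in the ARF18 line. They included 1 for TPL, ARF6, TPR3 and ARF8.

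Of 14 other early auxin response genes, 12 had a row and all 12 were expressed. On the log2 (RPKM + 1) scale 4 of these were 1.5-fold apart, beside 11% of all expressed genes, and 0 were 2-fold apart. Their count ratio intervals lay below 1 for 5, beside 15.6% of all expressed genes, and above 1 for 0, beside 18.7%, and their median log2 ratio was -0.16, or 0.0046 adjusted for length. HAT2, an auxin-induced homeobox gene, had 328 counts in Col and 186 in the ARF18 line, a ratio of 0.587 (0.487 to 0.704), and its log2 ratio of -0.74 was -0.81 when adjusted. LRP1, a marker of lateral root primordia, had 32 and 13 counts, a ratio of 0.420 (0.202 to 0.823), and LBD29, of lateral root initiation, had 6 and 13, a ratio of 2.24 (0.795 to 7.19). The auxin-conjugating enzyme gene GH3.6 had 2153 and 1855 counts, a ratio of 0.891 (0.837 to 0.949). Its log2 ratio of -0.16 was -0.0031 when adjusted for length.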

How the data were processed

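The members and gene lists were chosen with earlier results of these data known. Per the file headers, 1 deposited table holds the count of reads for every transcript model beside its RPKM, with 0 counts written as 0.01 RPKM (set to 0 here). Reads were assigned to TAIR 10, per the submitters' processing notes. Libraries were primed with random primers, per the labels' protocols. The sources used here do not give the aligner, counter or strandedness. The deposited log2 ratio, p-value and FDR columns are the authors' own, from a test that the sources used here do not name. RPKM values recomputed from counts, length and column totals differed by at most 3.23e-06 percent.

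Counts and RPKM were summed per locus. A nuclear gene whose RPKM averaged at least 1 was called expressed. Count ratios carry exact conditional binomial intervals, levels exact Poisson intervals, and shares exact Clopper-Pearson intervals. To adjust for length, genes were sorted into 50 length bins and each bin's median log2 ratio was taken off, and a second step did so for GC content, known for 15069 of 15083 genes. Trimmed mean of M values (TMM) factors came from edgeR 4.0.16. Named genes are all members, ARF18, and up to 3 genes per pathway list with the largest absolute log2 ratio. ASK2, GH3.6 and the SCF, TOPLESS and activator ARF genes below the minimum were chosen after their values were seen. Steps were tested on simulated data.

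Sequences come from the RefSeq TAIR10.1 genome, in which 21649 of 21825 loci were found. Of 23748 transcript models matched by name, 4282 (18.0%) had the same length there as in the deposited table. GC content, shared windows and gene starts were read from this annotation, so they can differ from those of the transcripts counted. Of 23 expressed members, 22 shared no 50-base window with another locus, and 7 overlap an annotated gene on the other strand (IAA3, IAA5, IAA9, IAA10, IAA27, AFB1 and AFB3), whose reads cannot be told apart without strand information. The work used Python 3.11.15, numpy 2.4.6, pandas 2.3.3, scipy 1.17.1, biopython 1.88, matplotlib 3.10.9 and R 4.3.3.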

Additional observations from a re-analysis of the deposited data

How the results depend on the processing

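No paired analysis was possible because there was only 1 library for each genotype. The count of 0 expressed members 2-fold apart was the same with pseudocounts of 0.1 and 5 RPKM. It was also 0 with a mean RPKM of 5 or more, at 1.5-fold, and with median-centred or TMM scaling. The same held with 1 transcript model per locus and after both adjustments. Under the rule that the counting interval excludes 1 the count was 6. By the calls in the authors' deposited table it was 1, an IAA8 model. Over all 31 members with 1 RPKM added it was 0. There the 8 below the minimum, at 0.812 RPKM or less in each library, could not reach 2-fold. With 0.1 RPKM added, the log2 ratios of IAA6, IAA8, IAA11 and IAA20 were -2.14, -2.14, -1.06 and 1.29. IAA13, IAA29, IAA31 and IAA33 were not 2-fold apart. ARF18 had a log2 ratio of 2.15, and 1.67 with a pseudocount of 5 RPKM. The Aux/IAA median of 0.21 became 0.0030 and the receptor median of -0.12 became 0.060 when adjusted for length and GC content. With no filter the Aux/IAA median was 0.030. Adjustment for length, alone or with GC content, changed the sign of the log2 ratio of 7 of 31 members and moved 6 beyond their counting interval (IAA7, IAA17, IAA28, TIR1, AFB2 and AFB5). TMM scaling changed no sign and median centring 3. Depth limits the low members: with 5 counts in each library, the ratio of IAA5 could lie anywhere from 0.238 to 4.49.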
